A study of Homo sapiens with 9 samples.

Results

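Genes whose products resolve or prevent R-loops were examined for the DNA:RNA hybrids carried by the genes themselves. The set held 33 protein-coding genes of the 19974 on chromosomes 1 to 22 and X, taken as a named list by their known roles. Each was measured over its RefSeq span plus 1 kb on either side. The cells were SH-SY5Y, a human neuroblastoma line long in culture, stably transduced with a lentiviral short hairpin and held under puromycin. The hairpin was a negative control (shNC) or directed against TDP-43 (shTDP43), an RNA- and DNA-binding protein. Nucleic acids were cut with 5 restriction enzymes (BsrGI, EcoRI, HindIII, SspI and XbaI), and hybrids were pulled down from 6 µg with the S9.6 antibody and sequenced (DRIP-seq). Each genotype had 3 untreated libraries and 1 treated for 6 h with RNase H, which digests the RNA strand of a hybrid. The labels do not say whether same-genotype libraries came from separately transduced lines, so p-values measure only the spread between these libraries.

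An R-loop forms when a transcript pairs again with its template strand and leaves the other DNA strand single. RNase H enzymes cut the RNA, helicases unwind it, topoisomerases relax the supercoiling that favours it, and the THO and export factors package the transcript so that it cannot pair again. The BRCA and Fanconi anaemia proteins act where such structures meet replication forks.

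The untreated lists covered between 91.6 Mb (shTDP43 replicate 1) and 142.0 Mb of the genome, with the other 4 between 125.5 and 130.9 Mb. After RNase H they covered 10.5 Mb in shNC and 5.66 Mb in shTDP43. The lowest background pileup at peak summits, a relative measure of depth, was 1.62 to 2.01 in shNC, 1.05 to 1.94 in shTDP43, and 0.936 and 0.991 after RNase H in shNC and shTDP43. Of 9 adrenergic neuroblastoma markers, 8 were covered in all 6 untreated libraries and TH, the noradrenaline pathway's first enzyme, in none. Summed over these 9, covered length was 113.6 to 124.7 kb in shNC and 96.7 to 109.4 kb in shTDP43. Without STMN2, singled out after its values were seen (26.1 to 34.7 kb against 10.5 to 19.2 kb), it was 87.5 to 89.96 kb and 86.2 to 90.2 kb, which overlapped. Of 9 markers of other cells, 6 had no peak in any untreated library and only the astrocyte marker GFAP was covered in all 6. Their summed length was 7.16 to 8.02 kb in shNC and 3.32 to 5.56 kb in shTDP43. Hybrid cover at a gene is no direct measure of its RNA.

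TARDBP, the hairpin target, was read first (chr1:11012654-11030528). It was covered over 14.2, 10.3 and 12.7 kb in shNC replicates 1 to 3 and over 6.82, 9.87 and 10.2 kb in shTDP43. All 3 shTDP43 libraries lay below all 3 shNC libraries, by a narrow margin for the closest pair. Before scaling 14.0% of all tested genes were separated in that direction, and after scaling 10.2%. The log2 change after scaling was -0.28 ± 0.12 (SE, n = 3 against 3), with a limma adjusted p of 0.443. A hairpin acts on the transcript, so this cover does not check the knockdown.

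The sequences next to the gene starts showed where the peaks began and ended. The 250 bases upstream of the start were available for 30 of the 33 genes (RefSeq, GRCh38.p14), all but WRN, BUB3 and FANCI. Within these windows the recognition sites of the 5 enzymes were searched: TGTACA (BsrGI), GAATTC (EcoRI), AAGCTT (HindIII), AATATT (SspI) and TCTAGA (XbaI). Each reads the same on both strands, and no site overlapped another in the listed genes. A site was present in 5 of the 30 windows (16.7%), against 15.8% of 15813 coding-gene windows. These 5 are shown because peak edges fell in them, 5′ to 3′ on the gene's strand, with the site in capitals.
DDX21: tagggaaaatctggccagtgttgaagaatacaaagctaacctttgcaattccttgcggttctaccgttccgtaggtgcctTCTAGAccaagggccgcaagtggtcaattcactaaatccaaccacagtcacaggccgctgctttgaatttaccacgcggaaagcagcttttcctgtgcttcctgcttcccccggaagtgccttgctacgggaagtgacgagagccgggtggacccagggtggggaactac
BLM: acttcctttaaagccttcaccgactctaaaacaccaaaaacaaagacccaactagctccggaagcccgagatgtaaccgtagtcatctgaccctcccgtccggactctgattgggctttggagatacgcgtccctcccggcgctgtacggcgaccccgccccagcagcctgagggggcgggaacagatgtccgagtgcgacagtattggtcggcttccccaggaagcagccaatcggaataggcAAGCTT
RNASEH2A: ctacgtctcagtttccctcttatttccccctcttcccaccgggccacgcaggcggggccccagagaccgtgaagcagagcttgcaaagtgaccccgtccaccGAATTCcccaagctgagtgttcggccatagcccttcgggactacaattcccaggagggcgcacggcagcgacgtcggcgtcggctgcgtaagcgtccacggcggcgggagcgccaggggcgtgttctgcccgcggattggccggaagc
AQR: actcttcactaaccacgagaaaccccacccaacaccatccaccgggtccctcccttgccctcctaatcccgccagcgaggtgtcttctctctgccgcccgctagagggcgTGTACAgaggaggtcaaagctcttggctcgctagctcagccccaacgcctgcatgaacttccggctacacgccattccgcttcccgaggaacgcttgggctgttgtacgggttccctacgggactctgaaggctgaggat
BRCA1: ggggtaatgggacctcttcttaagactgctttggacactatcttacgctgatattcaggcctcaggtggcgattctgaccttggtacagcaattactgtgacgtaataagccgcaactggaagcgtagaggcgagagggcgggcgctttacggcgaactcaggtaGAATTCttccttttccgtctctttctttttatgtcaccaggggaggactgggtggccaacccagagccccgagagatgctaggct

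In DDX21 (window chr10:68955920-68956169) the peak edge lay at base 68956001 in all 6 untreated libraries, inside the XbaI site at 68956000 to 68956005. In BLM (chr15:90717096-90717345) it lay at 90717341, inside the HindIII site, in the 4 libraries with a peak there. RNASEH2A (chr19:12806334-12806583) had its edge at 12806437 in 3 libraries, inside an EcoRI site. AQR (chr15:34969743-34969992) had it at 34969881 in 2, inside a BsrGI site. For BRCA1 (chr17:43170328-43170577) the cover ran through the EcoRI site in 5 libraries and stopped in it, at 43170408, in shTDP43 replicate 1. All 16 edges found in these 5 windows thus lay within the 6 recognised bases. Over all 30 windows, 16 of 26 edges (61.5%) lay within 5 bases of a site, and those positions made up 1.00% of the bases. Over all coding genes the share was 44.1% of 6588 edges, for 1.18% of the bases. Many peak edges at gene starts thus coincided with the ends of restriction fragments. Edges were counted in each library separately, so 1 position could count up to 6 times. The 16 edges in sites lay at 5 positions, 6 of them at that of DDX21. Shares by distinct position were not computed, so 61.5% and 44.1% are not compared further. In 5 of the listed genes a peak had the same 2 edges to the base in every untreated library: RNASEH2B (2.85 kb), RNASEH2C (11.1 kb), AQR (2.25 kb), XRN2 (2.24 kb) and BUB3 (2.02 kb). These were 2.43% to 2.87% of the peaks of the listed genes per library, near the 1.70% to 2.18% of all peaks.

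A second set of windows is shown for base composition, with runs of at least 4 G or at least 4 C in capitals. A run of C on the printed strand is a run of G on the other. RNASEH2C and RNASEH1 lay at the ends of the range of G over C and were both covered in full in all 6 untreated libraries. FANCM had no cover in any.
RNASEH2C: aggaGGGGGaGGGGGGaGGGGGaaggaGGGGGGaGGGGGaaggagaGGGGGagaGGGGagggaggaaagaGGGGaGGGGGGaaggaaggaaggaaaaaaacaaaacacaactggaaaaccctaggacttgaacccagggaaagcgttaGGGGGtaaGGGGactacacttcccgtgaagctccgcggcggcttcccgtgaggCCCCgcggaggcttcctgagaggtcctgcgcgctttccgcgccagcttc
RNASEH1: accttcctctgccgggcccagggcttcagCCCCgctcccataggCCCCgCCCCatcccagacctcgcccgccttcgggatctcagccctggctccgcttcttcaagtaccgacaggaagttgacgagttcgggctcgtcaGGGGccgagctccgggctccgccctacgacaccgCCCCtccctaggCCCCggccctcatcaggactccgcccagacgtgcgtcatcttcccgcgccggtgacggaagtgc
FANCM: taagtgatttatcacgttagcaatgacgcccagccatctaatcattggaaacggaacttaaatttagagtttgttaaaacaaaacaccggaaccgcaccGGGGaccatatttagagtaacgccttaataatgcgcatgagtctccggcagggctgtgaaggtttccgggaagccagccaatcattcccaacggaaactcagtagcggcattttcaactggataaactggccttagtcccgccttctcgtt

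RNASEH2C (chr11:65720799-65721048) held 11 G runs and had a GC skew, the excess of G over C divided by their sum, of 0.41. Only 1.03% of all windows had a skew at least that high and 0.923% as many G runs. RNASEH1 (chr2:3558334-3558583) had a skew of -0.24 with 5 C runs and 1 G run. FANCM (chr14:45135680-45135929) was the poorest in G and C of the 30, at 46.4%, with 1 run. The THOC5 window, with the same skew as that of RNASEH1, was fully covered in 3 of the 6 untreated libraries and had no cover in shNC replicates 1 and 3. At least 1 G run was found in 73.3% of the listed windows and 76.6% of all windows. At least 1 C run was found in 76.7% and 76.8%. Median G and C content was 61.8% against 62.4%, and the median ratio of observed to expected CpG was 0.93 against 0.74. These matches describe letters only.

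The window upstream of the start was wholly covered in all 6 untreated libraries in 14 of 30 listed genes (46.7%), against 30.2% of all coding genes. It was untouched in 3, FANCM, PIF1 and TDRD3 (10.0%), against 43.3%. PIF1, a helicase that unwinds DNA and hybrids, was nevertheless covered over 71.9% of its gene window. TDRD3, the adaptor that brings TOP3B to chromatin, had its cover begin just inside the gene: its strongest summit lay 0.274 to 2.42 kb downstream of the start.

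Most of the listed genes carried hybrids in every untreated library. A peak was present in all 6 libraries for 32 of 33 (97.0%), against 59.9% of coding genes, and the median gene had 23.5% of its window covered, against 5.61%. The listed genes were also longer, with a median span of 48.6 kb against 24.2 kb. Wide cover was not particular to them. In 63 other genes of the R-loop pathway the median gene was covered over 23.4% to 36.0% in the untreated libraries. In the listed genes it was covered over 19.5% to 25.1%. The covered share varied from 0.268% (FANCM) to 100% (RNASEH2C), with 6 genes above 80% and 8 below 5%. In 15 of the 33 another coding gene reached into the window, and peaks there cannot be assigned to one gene.

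**Figure D1:**
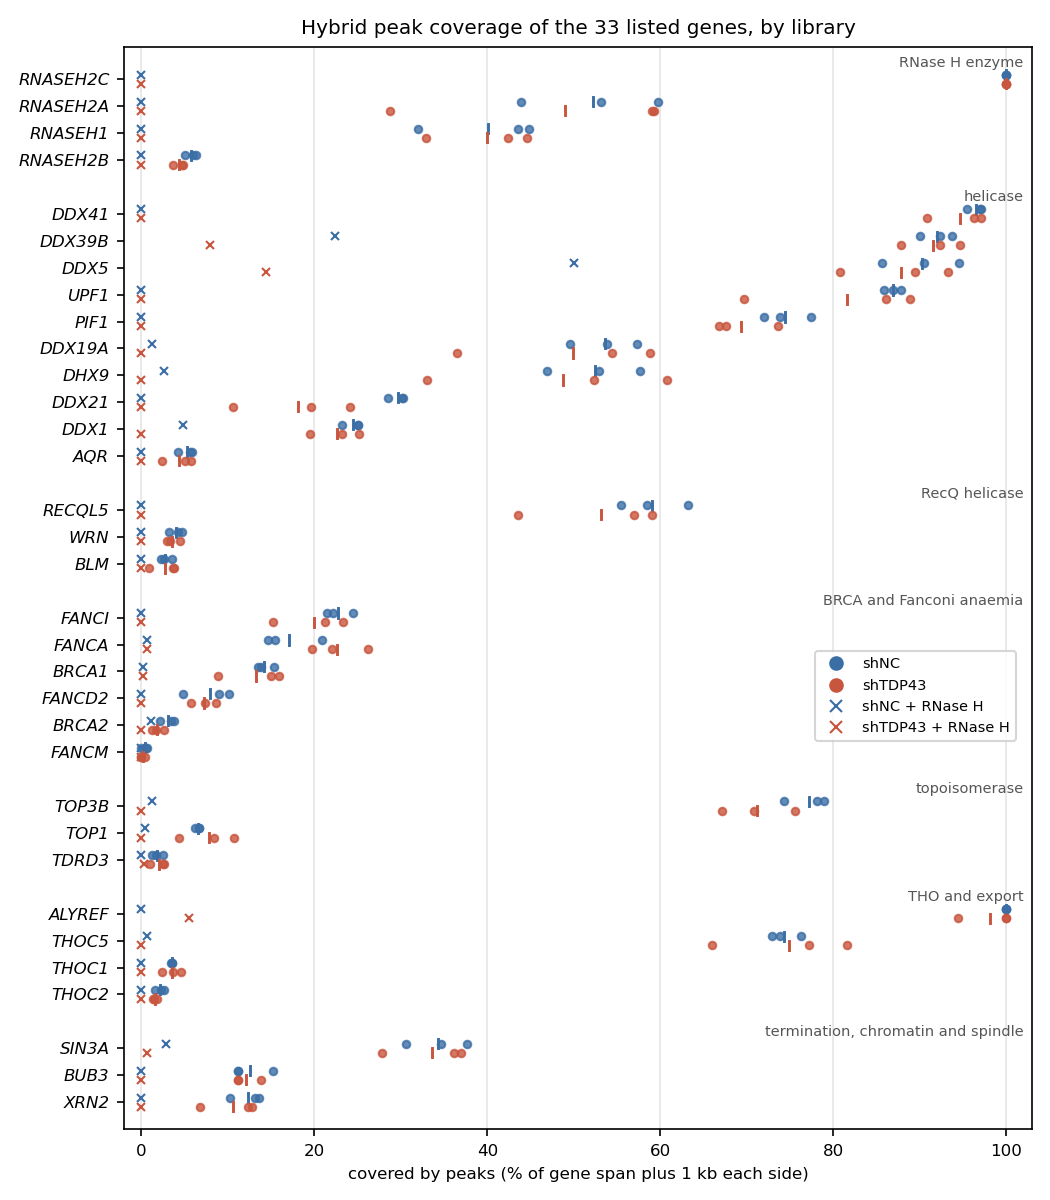
Percentage of each gene window, the span with 1 kb added at either end, that peaks covered. Each dot is 1 untreated library, short lines are the means of 3, crosses are the RNase H libraries, and genes are grouped by role. RNASEH2C lies at 100% in all 6 untreated libraries, FANCM lies near 0, and the cross of DDX5 in shNC stands at 50.1%.

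Between the genotypes no listed gene passed the test. Of the 33, 32 had enough cover to be tested and 0 had an adjusted p under 0.05 (limma with Benjamini-Hochberg adjustment over 12810 genes), against 0.921% of all genes (22 or 0.172% higher and 96 or 0.749% lower in shTDP43). At an unadjusted p under 0.05 there were 2, FANCA and DDX21, or 6.25%, against 11.5% of all genes. The median log2 change was 0.085 over the listed genes and 0.046 over all. After scaling, 24 were positive and 8 negative. Without scaling 4 were positive, 27 negative and RNASEH2C at 0, and the medians were -0.11 and -0.15, so the balance of signs follows the scaling and is given no direction here.

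**Figure D2:**
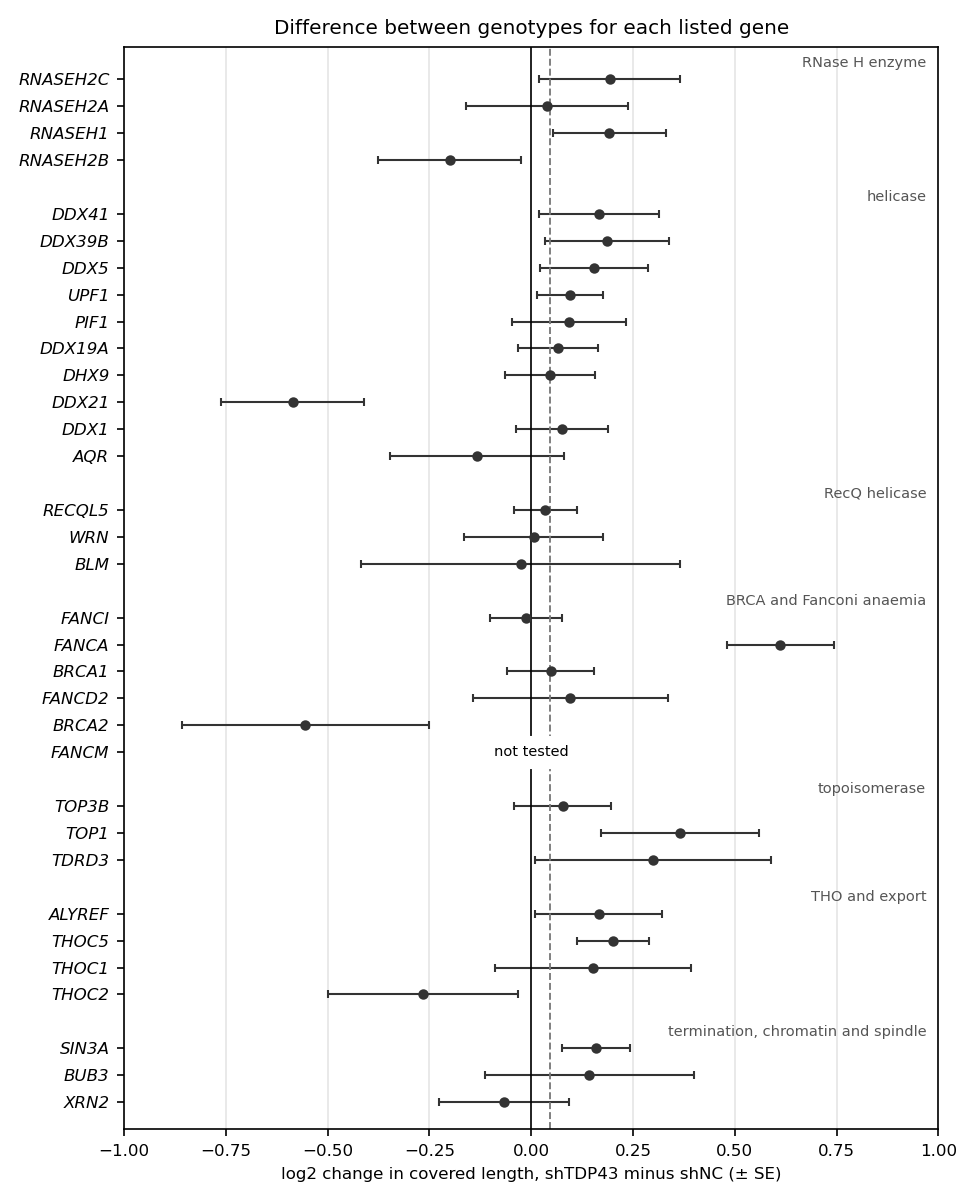
Log2 change in covered length, shTDP43 minus shNC, for the 32 tested genes after scaling to the median library total. Points are estimates, bars are standard errors, and the dashed line is the median of all tested genes. FANCA lies at 0.61 and DDX21 at -0.58, the most distant from 0 in either direction, and 0 of the 32 passed the adjusted threshold.

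The RNase H enzymes cut the RNA of a hybrid. RNASEH1 (chr2:3531813-3558333), the single-subunit enzyme of nucleus and mitochondria, was covered over 12.8, 9.13 and 12.4 kb in shNC and 9.38, 12.7 and 12.1 kb in shTDP43. The groups overlapped, with a log2 change of 0.19 ± 0.14 and an adjusted p of 0.634. RNASEH2C (chr11:65717673-65720798), a structural subunit of RNase H2, lay whole under 1 peak of 11.1 kb in every untreated library, which also covered its neighbour KAT5. Its covered length was at the ceiling and did not differ between libraries, and the log2 change of 0.19 ± 0.17 came from the scaling alone. RNASEH2B (chr13:50909678-50970460), the other structural subunit, was covered over 3.78, 3.17 and 3.94 kb against 2.28, 3.03 and 2.96 kb. Its shTDP43 libraries lay below all shNC libraries before scaling and overlapped them after it (log2 change -0.20 ± 0.18, adjusted p = 0.635). The unscaled separation has the same 14.0% background as that of TARDBP. RNASEH2A, the catalytic subunit, had 52.3% ± 8.01 of its window covered in shNC and 49.0% ± 17.6 in shTDP43 (SD, n = 3).

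Among the helicases DDX21 stood apart. DDX21 (chr10:68956170-68985068), a nucleolar RNA helicase that unwinds hybrids, was covered over 9.33, 8.81 and 9.32 kb in shNC and 3.29, 6.06 and 7.46 kb in shTDP43. All 3 shTDP43 libraries lay below all 3 shNC libraries, both before scaling and after it (4.63, 6.09 and 7.36 kb against 8.49, 8.76 and 9.59 kb). After scaling 10.2% of all tested genes were separated in that direction. The log2 change was -0.58 ± 0.18 with an adjusted p of 0.216, which did not pass. The libraries lay close together only in the first region, chr10:68956001-68957523, whose first edge was in the XbaI site in all 6. It was covered over 1.30 to 1.52 kb in shNC and 1.30 kb in each shTDP43 library. The first of 3 equal stretches of the gene was covered over 3.76, 1.96 and 2.69 kb in shNC. In shTDP43 that stretch had 1.13, 2.05 and 2.42 kb, with overlap. The widest region, chr10:68973377-68978701 past the gene's middle, was covered over 3.90, 5.23 and 4.41 kb in shNC and 1.60, 3.44 and 3.43 kb in shTDP43.

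UPF1 (chr19:18831959-18868230), the nonsense-mediated decay helicase, was the widest covered of the helicases. It was covered over 33.6, 33.3 and 32.9 kb in shNC and 26.7, 32.96 and 34.0 kb in shTDP43, so the groups overlapped (log2 change 0.10 ± 0.08, adjusted p = 0.634). DDX5 (chr17:64498254-64506866), which unwinds hybrids at gene ends and breaks, was covered over 9.60, 9.10 and 10.0 kb against 8.57, 9.90 and 9.50 kb. DDX39B (chr6:31530226-31542003), the export helicase also known as UAP56, was covered over 12.9, 12.4 and 12.7 kb against 12.7, 12.1 and 13.0 kb. Both pairs of groups overlapped, and at 89.0% and 91.8% of their windows these genes had little room to gain. The same held for DDX41, which acts in splicing and on promoter hybrids, at 95.6%. DHX9, DDX19A and DDX1 had 50.6%, 51.8% and 23.5% of their windows covered and log2 changes of 0.05, 0.07 and 0.08. AQR, the intron-binding helicase of the spliceosome, had 4.82% covered and a log2 change of -0.13 ± 0.21.

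The RecQ helicases, which unwind branched DNA, differed from one another far more than between genotypes. RECQL5 (chr17:75626854-75667154), which binds RNA polymerase II, was covered over 26.7, 23.4 and 24.7 kb in shNC and 18.4, 25.0 and 24.1 kb in shTDP43. The groups overlapped and the log2 change was 0.03 ± 0.08 (adjusted p = 0.830). BLM and WRN, the Bloom and Werner syndrome helicases, had 2.77% and 3.81% of their windows covered. Their log2 changes were -0.03 ± 0.39 and 0.01 ± 0.17.

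FANCA held the smallest p-value of the listed genes. FANCA (chr16:89737549-89816647), a subunit of the Fanconi anaemia core complex that ubiquitinates FANCD2 and FANCI, was covered over 16.9, 12.6 and 11.9 kb in shNC and 16.0, 21.2 and 17.9 kb in shTDP43. Another coding gene reached into this window, and peaks there cannot be assigned to one gene. The region at the gene end, chr16:89716083-89742013 (25.9 kb), ran mostly beyond FANCA. The groups overlapped through shNC replicate 1 and shTDP43 replicate 1. After scaling they were 15.4, 12.5 and 12.2 kb against 22.5, 21.3 and 17.7 kb and no longer overlapped, as was so in that direction for 8.14% of all tested genes. Separation in that direction before scaling was seen for 0.796%. The log2 change was 0.61 ± 0.13, and the limma adjusted p of 0.0894 did not pass. Over the 20 other settings tried it lay between 0.0646 and 0.720 and the log2 change between 0.25 and 0.72. The change was 0.42 without scaling, 0.37 for peaks with −log10 q of at least 10, and 0.25 without peaks also called after RNase H in the same genotype.

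The middle of FANCA differed the most in proportion. The gene was split from its start into 3 equal stretches of 26.4 kb. The middle stretch was covered over 0.379, 0.635 and 0 kb in shNC and 1.98, 1.86 and 0.737 kb in shTDP43, with no overlap. The stretch at the gene end was covered over 9.38, 8.64 and 8.05 kb against 8.07, 11.1 and 9.02 kb, and that at the start over 6.21, 2.16 and 3.25 kb against 4.65, 6.75 and 6.70 kb. Both overlapped. The middle stretch held 5 small regions, of which 4 were called in 1 or 2 shTDP43 libraries and in no shNC library, a pattern that 18.1% of all regions had. These stretches were looked at after the values of the whole gene were seen. The share of such stretches separated over all genes was not computed. Stretches of other listed genes were separated too. The middle of DDX21 was lower in shTDP43 (0.56, 0.571 and 2.03 kb against 2.23, 3.23 and 2.13 kb in shNC). The end of RECQL5 was higher (12.7, 12.9 and 12.9 kb against 12.6, 12.3 and 12.5 kb). The first stretch of FANCD2 was lower (2.36, 2.68 and 2.29 kb against 3.40, 3.38 and 3.02 kb). So was that of RNASEH2B (1.28, 1.73 and 1.64 kb against 2.78, 2.17 and 2.54 kb). That of THOC5 was higher (10.16, 11.04 and 10.46 kb against 9.81, 10.12 and 10.14 kb).

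BRCA1 (chr17:43044295-43170327), the repair protein that recruits factors to hybrids at gene ends, was covered over 19.6, 17.7 and 17.3 kb in shNC and 11.3, 20.3 and 19.2 kb in shTDP43, with overlap (log2 change 0.05 ± 0.11, adjusted p = 0.830). BRCA2 (chr13:32315077-32400268), a homologous recombination protein, was covered over 2.99, 1.85 and 3.27 kb against 1.07, 2.23 and 1.505 kb. The groups overlapped in this sparsely covered gene, at -0.56 ± 0.30 (adjusted p = 0.548). FANCI and FANCD2, which form the complex that FANCA's ligase modifies, had log2 changes of -0.01 ± 0.09 and 0.10 ± 0.24. FANCM, the translocase that remodels forks, was not tested. It was covered over 0.367, 0.411 and 0 kb in shNC and 0, 0 and 0.298 kb in shTDP43, all of it upstream of the start.

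The topoisomerases relax the supercoiling behind RNA polymerase. TOP1 (chr20:41028822-41124487), which works on DNA, was covered over 6.48, 6.10 and 6.48 kb in shNC and 4.28, 8.19 and 10.5 kb in shTDP43. The shTDP43 libraries lay on both sides of the shNC libraries (log2 change 0.37 ± 0.20, adjusted p = 0.537). Its start region at chr20:41027981-41031653 was covered over 3.58 kb in each shNC library and 3.19, 3.58 and 3.67 kb in shTDP43, and the libraries differed over the gene body. TOP3B (chr22:21957025-21982787), which also acts on RNA, was covered over 21.9, 20.6 and 21.7 kb against 18.6, 19.7 and 21.0 kb, with overlap (0.08 ± 0.12, adjusted p = 0.753). TDRD3 had 1.93% of its window covered and a log2 change of 0.30 ± 0.29.

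The THO complex couples transcription to export. THOC5 (chr22:29505879-29553757) was covered over 38.1, 36.4 and 36.9 kb in shNC and 32.9, 40.7 and 38.5 kb in shTDP43. The groups overlapped before scaling. After it the highest shNC library stood at 37.9 kb and the lowest shTDP43 library at 38.0 kb (log2 change 0.20 ± 0.09, adjusted p = 0.438). THOC2 (chrX:123600569-123733052), the scaffold of the complex, was covered over 3.04, 3.47 and 2.18 kb against 1.80, 1.99 and 2.41 kb, with overlap (-0.27 ± 0.23, adjusted p = 0.635). THOC1 had 3.53% of its window covered. ALYREF, the export adaptor, had 99.1% covered under a region of 32.9 kb that ran far beyond it.

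In the last group SIN3A (chr15:75369379-75455815), a scaffold of histone deacetylase complexes, was covered over 33.4, 27.1 and 30.6 kb in shNC and 24.6, 32.0 and 32.6 kb in shTDP43. The groups overlapped before scaling and not after it, at 0.16 ± 0.08 (adjusted p = 0.529). XRN2, the exonuclease of transcription termination, and BUB3, the spindle checkpoint protein, had log2 changes of -0.07 ± 0.16 and 0.14 ± 0.26. Over all 33 genes, 28 overlapped on both scales, 3 (FANCA, THOC5 and SIN3A) were separated upward after scaling only, RNASEH2B downward before scaling only, and DDX21 downward on both. Over all tested genes 8.14% were separated upward and 10.2% downward after scaling, and 14.0% downward before it, so these counts lie near or below the general shares.

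The cover of the listed genes was laid out in 275 merged regions with a median width of 850 bases. Of these 85 (30.9%) were found in all 6 untreated libraries, against 24.2% of 99429 regions genome-wide. They held 81.4% of the regions' length, against 71.0% genome-wide. A single region was found in all 3 shNC libraries and no shTDP43 library, against 1.27% of all regions. It lay in BRCA1 at chr17:43153014-43154074, 16.8 kb from the start, and was covered over 0.808, 0.566 and 0.470 kb. The opposite pattern, which 0.258% of all regions had, was found in 0 regions of the listed genes. Leaving out 1 library moved these counts to as many as 6 (2.25%, against 2.71% of all regions, without shNC replicate 1) and 7 (2.58%, against 1.75%, without shTDP43 replicate 1).

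**Figure D3:**
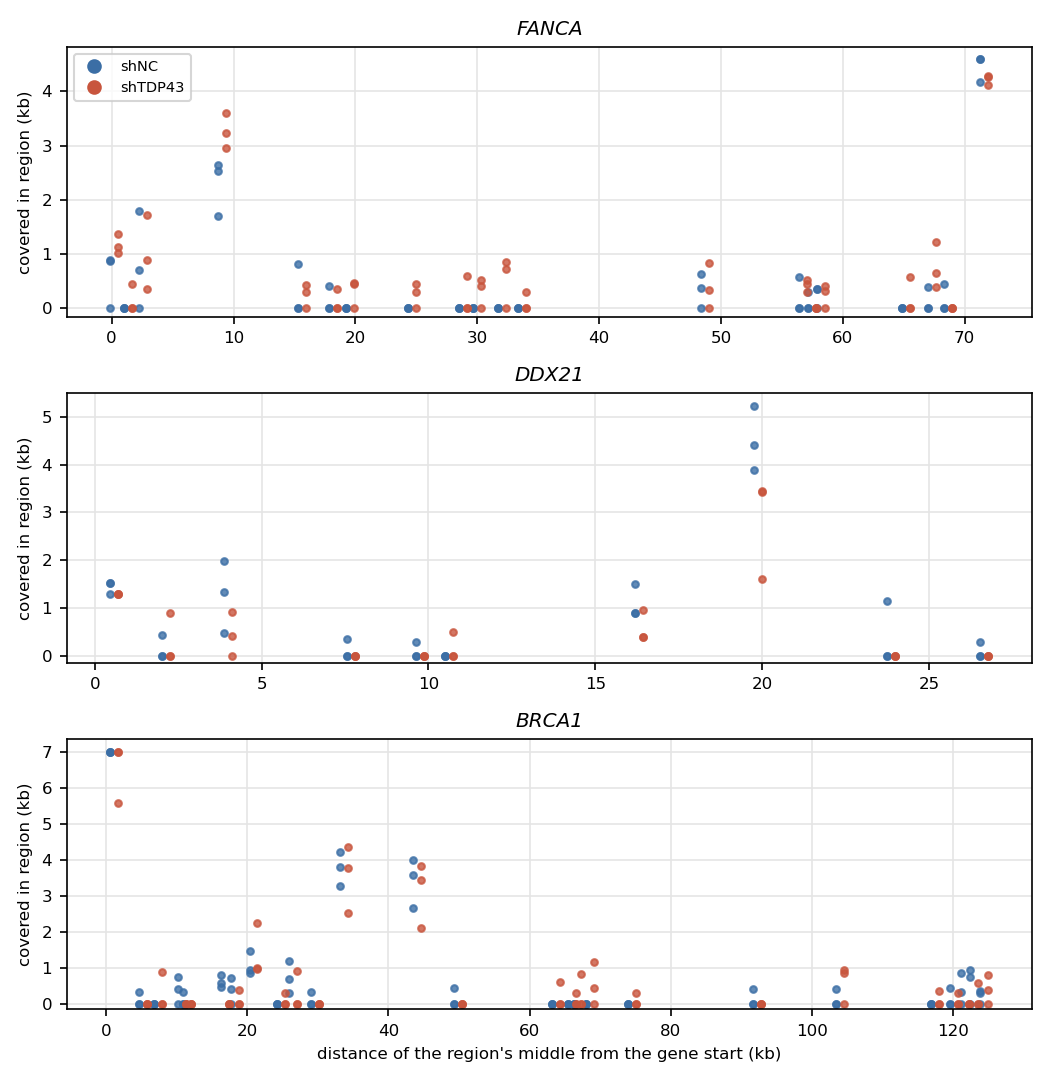
Length covered in each merged region of FANCA, DDX21 and BRCA1, in kb, against the distance of the region's middle from the gene start in kb. Each dot is 1 untreated library, offset slightly by genotype, and regions centred beyond the 1 kb after the gene end are left out. FANCA shows small shTDP43 values in its middle where most shNC libraries are at 0, and the wide DDX21 region near 20 kb is lower in shTDP43.

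Position along the gene was measured in the 30 genes with a known strand. The 1 kb on either side of the start held 10.8% to 13.5% of the covered length in the 6 untreated libraries, against 13.0% to 14.8% for all coding genes. The 1 kb on either side of the end held 7.14% to 7.98%, against 8.38% to 10.0%. Each gene was divided into 10 equal bins. Bin 1, at the start, was covered over 38.6% to 50.4% on average and bin 3 over 29.3% to 38.2%. In all coding genes these were 24.3% to 33.2% and 16.0% to 21.97%, so cover was wider in the listed genes along the whole gene body. The start window was touched by a peak in 25 to 29 of the 30 genes, against 48.8% to 58.2% of all coding genes. The strongest peak had its summit within 1 kb of the start in all 6 untreated libraries for DDX5 and DHX9 and in 5 of 6 for BRCA2 and DDX21.

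**Figure D4:**
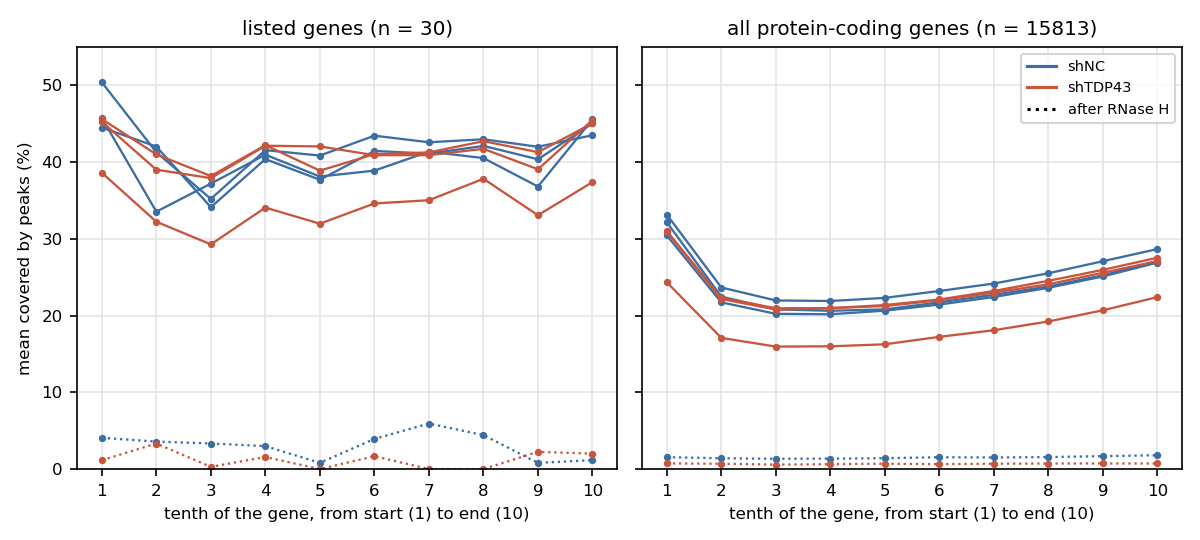
Mean percentage covered by peaks in each of 10 equal bins from gene start to gene end, for the 30 listed genes with a known strand and for 15813 coding genes. Each line is 1 library and dotted lines are the RNase H libraries. Listed genes lie above all genes in every bin of the untreated libraries, and shTDP43 replicate 1, the library with the shortest total, is the lowest of the untreated lines in both panels.

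Cover of the listed genes was far shorter after RNase H in both genotypes. In shNC the untreated libraries covered 404.2, 360.7 and 372.3 kb of the listed windows and the treated library 17.4 kb, or 4.59% of their mean, against 5.77% for all coding genes. In shTDP43 they covered 290.9, 393.4 and 394.9 kb and the treated library 4.98 kb, or 1.38%, against 3.23%. For peaks with −log10 q of at least 5 these shares were 2.66% in shNC (4.04% for all genes) and 0.360% in shTDP43 (2.13%). With untreated lists cut to the treated list's number of peaks they were 6.27% (8.89%) and 2.41% (6.29%). With 1 treated library per genotype there is no test. The treated cover was at least 4 times shorter than in the lowest untreated library in 30 of 32 genes in shNC (93.8%, against 90.6% of all genes) and 31 of 32 in shTDP43 (96.9%, against 93.2%). The treated libraries also had the lowest background pileups, and the part of depth in this loss was not tested.

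A treated peak was found in 12 of the 32 listed genes covered in every untreated library in shNC (37.5%, against 35.7% of all such genes) and 7 of 32 in shTDP43 (21.9%, against 23.3%). DDX5 had the longest treated cover in both, 5.32 kb in shNC and 1.53 kb in shTDP43, against untreated means of 9.58 ± 0.47 and 9.32 ± 0.68 kb (SD, n = 3). In each of the 8 libraries its strongest summit lay 0.759 to 0.762 kb downstream of the start. DDX39B had 3.09 and 1.095 kb and SIN3A 2.55 and 0.589 kb. DDX1, the RNA helicase of tRNA ligation, had 1.995 kb, DHX9 1.33 kb and BRCA2 0.950 kb in shNC, and none of the 3 had a treated peak in shTDP43. Of the BRCA2 cover only 0.281 kb lay under an untreated shNC peak. In shTDP43 TDRD3 had 0.623 kb, none of it under an untreated peak, and FANCA had 0.523 kb in each genotype. The treated cover lay under untreated peaks of the same genotype for 91.3% of its length in shNC and 72.2% in shTDP43. The helicase genes AQR, DDX21, DDX41, PIF1 and UPF1, and RNASEH2C, which was 100% covered without treatment, had no treated peak in their windows in either genotype. Some untreated regions ran past these windows and held treated cover outside them. In shNC this was 1.02 kb at RNASEH2C, 2.205 kb at UPF1 and 2.44 kb at DDX41. In shTDP43 it was 2.84 kb at DDX41.

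Other genes of the R-loop pathway gave a wider frame. Of 63 such genes, 61 were tested and 0 passed, with 7 (11.5%) at an unadjusted p under 0.05. The smallest p-values of each group belonged to MCM3AP among export factors (0.37 ± 0.09, adjusted p = 0.119), ZRANB3 among the remaining genes (-0.47 ± 0.13, adjusted p = 0.193) and DDX3X among helicases (0.34 ± 0.10, adjusted p = 0.209). FANCC among Fanconi anaemia genes was at -0.17 ± 0.07 (adjusted p = 0.40), TOP3A among topoisomerases at 0.19 ± 0.10 (adjusted p = 0.501) and EXO1 among nucleases at 0.20 ± 0.12 (adjusted p = 0.608). ZRANB3, a fork-remodelling translocase, was covered over 6.41, 5.66 and 6.02 kb in shNC and 2.95, 4.39 and 4.19 kb in shTDP43, with no overlap on either scale. FANCC, another core complex subunit beside FANCA, was covered over 42.6, 38.8 and 40.4 kb against 24.9, 33.4 and 37.4 kb, also with no overlap on either scale. Both were named for the smallest p of their group, and 14.0% of all tested genes before scaling and 10.2% after it were separated in that direction. BRIP1 and THOC3 had too little cover to test. FANCA and FANCC, of the same complex, thus had log2 changes of opposite sign, and neither passed.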

How the data were processed

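DRIP-seq peak lists of 8 SH-SY5Y libraries were analysed, and an input library named in the labels was not analysed here. Each library had its own peak list, per the labels. Bowtie2 2.4.4, SAMtools and MACS2 2.2.6 are the tools, and hg38 the build, in the submitters' processing notes. Neither settings nor the control for calling peaks are given in the sources used here. Every deposited peak has the authors' fold enrichment (a ratio), −log10 p and −log10 q, and a score made from the −log10 q. They served only to describe peaks or set thresholds within one list. The lists hold no read counts, so depth was read as the background pileup that solves the fold and p at a summit, found within 0.001 at all 2000 summits tried per library.

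The value per gene was the length of its RefSeq span (GRCh38.p14, the coordinates of hg38) with 1 kb added at either end that peaks covered. Values were scaled to the median of the library totals, 100 bp was added, and log2 values of 12810 genes (mean cover 500 bp or more) were fitted with limma 3.58.1 (trend, R 4.3.3), which was tested on simulated data. Printed lengths are unscaled unless stated. Log2 changes use scaled lengths plus the pseudocount and come with standard errors. Strand, gene start and promoter sequence came from RefSeq. The start could lie inside the printed span, as for BRCA2 (32315508) and DDX5 (64506638). Bins and stretches were cut from the span. Genes were named as all members, the widest and the smallest p of each of 7 roles, the 12 smallest p, and those with a library at 0, the longest cover after RNase H, or a one-genotype region. The members and lists were chosen with earlier results of these data known. No exon annotation was used. Scaling, pseudocount, filters, peak thresholds, windows, a replicate block and single libraries left out were varied.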

Additional observations from a re-analysis of the deposited data

How the results depend on the processing

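The listed genes gave 0 calls in every setting but one, and FANCA (0.25 to 0.72) and DDX21 (-0.78 to -0.41) kept their signs in all 20. FANCA passed in none of these settings, and DDX21 passed in that one alone (limma adjusted p = 0.0409). The exception took out untreated peaks that overlapped a treated peak of the same genotype. Of 32 listed genes tested, 11 were then called, 9 higher and 2 lower. Of 12162 genes tested in all, 1739 were called (1070 higher, 669 lower). At an unadjusted limma p under 0.05 there were 37.5% of the listed genes and 27.1% of all genes. Called listed genes named by rule were DDX21, lower, and UPF1, TOP1, RECQL5, THOC5, TOP3B and BRCA1, higher (limma adjusted p from 0.00596 for UPF1 to 0.0481 for BRCA1). This filter removed whole peaks that held 23.2% to 23.6% of covered length in shNC and 13.7% to 14.7% in shTDP43. Whether this difference bears on the calls was not tested. With peaks overlapping either treated list removed from both genotypes, an alternative chosen after seeing the data, 0 listed genes and 78 genes in all were called, with DDX5 at -0.23, RECQL5 at -0.042 and THOC5 at -0.025. The own-list filter put DDX5 at -0.40 and SIN3A at -0.017.

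The 118 calls over all genes became 20 without scaling, 196 with a pseudocount of 500 bp, 33 and 32 for peaks with −log10 q of at least 5 and 10, 179 with equal peak numbers and 75 with no variance trend. The cause was not tested. Leaving out 1 library gave 18 to 223 calls: 18, 32 and 27 without shNC replicates 1, 2 and 3, and 223 without shTDP43 replicate 1. Same-number libraries correlated at -0.17, 0.06 and -0.17 in their deviations from group means, and different-number libraries at -0.18 to 0.23. With 3 libraries a group these deviations sum to 0 within each group, so the values cannot settle whether libraries were paired. A limma fit with the replicate block gave 74 calls, 0 of them listed, with a smallest adjusted p of 0.117 among the listed genes.

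Without scaling 19 listed genes turned from positive to negative (-0.19 to -0.0019). Those named by rule were RNASEH1 (-0.0019), DDX5 (-0.040), DDX39B (-0.0078), UPF1 (-0.10), RECQL5 (-0.16), BRCA1 (-0.15), TOP3B (-0.12) and SIN3A (-0.036). TOP3A, a pathway gene outside the list, turned too (-0.0015). Cyclic loess turned RECQL5 (-0.019) and BRCA1 (-0.0080). The stricter q of 5 turned RNASEH2B (0.064) and BRCA2 (0.97), and that of 10 turned BRCA2 (0.14). With 1 library left out BRCA1 ranged from -0.031 (without shTDP43 replicate 2) to 0.149 and TOP3B from -0.048 (without shTDP43 replicate 1) to 0.157.

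The share left after RNase H was 2.66% in shNC and 0.360% in shTDP43 for q of at least 5, and 6.27% and 2.41% with untreated lists cut to the treated list's number of peaks. The share near starts was 19.8% and 19.9% with 2 kb windows. With q of at least 5, 2 shNC-only regions were found. Leaving out 1 library gave 1 to 6 shNC-only and 0 to 7 shTDP43-only regions. The peak lists hold no read counts, so no counting interval is given for a covered length.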
